A study of Rattus norvegicus with 6 samples.

Results

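The 36 genes described here are those of antioxidant defence, metallothioneins and iron storage, taken by symbol from the 29468 gene symbols in the tables. They encode NRF2 (Nfe2l2) and its inhibitor, heme oxygenase and a quinone reductase, the enzymes that make and recycle glutathione, glutathione peroxidases, peroxiredoxins, the thioredoxin system, superoxide dismutases and catalase, metallothioneins, glutathione S-transferases, the ferritin chains and ceruloplasmin. All 36 were listed, and 35 had a mean FPKM of 1 or more and were tested (FPKM counts sequenced fragments relative to transcript length and to all mapped fragments). Srxn1 did not.

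RNA came from Schwann cell precursors (SCPs, n = 3) and repair Schwann cells (RSCs, n = 3) of wild type LEWIS rats. SCPs were cells of the sciatic nerve and brachial plexus of untreated embryos at embryonic day 14. RSCs came from the distal part of the sciatic nerve of rats aged 10 weeks, 1 week after it had been cut. Both were dissociated with enzymes, RSCs for longer and in more collagenase, and then left in an uncoated flask to which fibroblasts and macrophages adhere, so that floating cells were used. Age, nerve injury, the nerves sampled and the dissociation differ together between the groups and cannot be told apart. The study calls the 3 preparations of a group separate samples without naming the animals behind each, so p-values measure the spread between these preparations. Read counts were not in the tables and the absolute depth is unknown. Relative depth, taken as coverage per unit of FPKM with SCP replicate 2 set to 1, was 0.933 in SCP replicate 1 and 0.878 in SCP replicate 3, and it was lower in the RSC replicates, at 0.799, 0.841 and 0.789. Throughout, the 3 values of a group are FPKM in replicates 1, 2 and 3 in that order.

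Oxygen metabolism produces superoxide, which the superoxide dismutases turn into hydrogen peroxide. Catalase, glutathione peroxidases and peroxiredoxins then remove the peroxide, drawing on glutathione or thioredoxin. NRF2 is a transcription factor that KEAP1 holds in check by directing it to degradation, and when released it binds antioxidant response elements in the promoters of many of these genes. Free iron turns hydrogen peroxide into the far more reactive hydroxyl radical. Ferritin stores iron in a safe form, heme oxygenase releases it from heme, and metallothioneins bind zinc and copper. In a cut nerve, Schwann cells and incoming macrophages clear the debris of myelin and of other cells.

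Sox10, the transcription factor of the Schwann cell lineage, was at 179, 175 and 181 FPKM in SCPs and 149, 143 and 143 in RSCs. Both groups expressed it, with a log2 fold change of -0.30 between them. Among the lineage markers, S100b, Ngfr and Mbp were higher in RSCs, Sox10 was higher in SCPs, and Erbb3, Foxd3 and Cdh19, each listed at 0 in at least 1 sample, were not called. S100b was at 3.21, 11.7 and 19.3 FPKM in SCPs and 924, 782 and 843 in RSCs. Cufflinks left some transcripts without a name, and in an alternative these were added to the gene they overlap. A listed 0 can be a transcript that went unnamed. Erbb3, the neuregulin receptor of Schwann cells, was listed at 0, 31.6 and 32.8 FPKM in SCPs and 111, 0 and 95.6 in RSCs, and with the unnamed transcripts at 79.8, 87.7 and 102 FPKM in SCPs and 269, 208 and 218 in RSCs. On those values Erbb3 was higher in RSCs (log2 fold change 1.35, adjusted p = 1.9e-04), as was Cdh19 (0.77, adjusted p = 0.0048), and Foxd3 was at 59.0, 53.9 and 57.5 FPKM in SCPs and 55.9, 52.1 and 76.6 in RSCs, with overlapping groups. Fabp7, a marker of precursors, was at 0 in all 3 SCPs and at 0.511, 0 and 0 in RSCs.

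Transcripts of other cell types were unequal between the groups. Of 12 erythroid marker genes, 10 were tested and 9 were higher in SCPs, with a summed level of 35586, 31552 and 135586 FPKM in SCPs and 2400.1, 1868 and 2474 in RSCs. The most abundant was the embryonic globin Hbe1, and Hbe1 and Hbz were at 0 in every RSC sample, while Alas2 was listed at 0 in every SCP sample but, with the unnamed transcripts, was at 24.8, 20.0 and 65.2 FPKM there and at 1.23, 1.70 and 1.43 in RSCs. The globin genes held 7.23%, 6.09% and 22.5% of the FPKM of named transcripts in SCPs, so SCP replicate 3 stood apart. Results that rest on it are given with and without it. Leukocyte markers went the other way, with all 11 of those in the tables over 4-fold higher in RSCs and a sum of 16.3, 31.8 and 44.2 FPKM in SCPs against 2271, 2603 and 2708 in RSCs. Lyz2, a lysozyme gene of macrophages, was the most abundant, and no leukocyte marker was at 0 in a whole group. Fibroblast markers were higher in RSCs in 5 of 7 genes (sums of 661, 929 and 1029 FPKM in SCPs and 5371, 8018 and 6768 in RSCs, Dcn the most abundant). Of 6 muscle markers, 5 were higher in SCPs, with Myod1 and Myf5 at 0 in every RSC sample. Their sums were 41.2, 59.8 and 113 FPKM in SCPs and 31.4, 28.8 and 25.7 in RSCs, and Des, which was higher in RSCs, was the most abundant over the 6 samples. None of 7 endothelial markers was called. Their sums were 34.4, 62.1 and 41.1 FPKM in SCPs and 75.5, 67.3 and 63.2 in RSCs, and Tie1 was the most abundant. Of 5 neuronal markers tested 2 were higher in SCPs (sums of 51.1, 28.4 and 39.3 FPKM in SCPs and 28.1, 17.5 and 22.1 in RSCs). Tubb3 was the most abundant of these, and Elavl4 and Isl1 were at 0 in every RSC sample. The part of these cells in the results below was not tested. In bulk RNA, fewer cells of a type and less RNA per cell cannot be told apart. Of the tested marker genes, 18 had a mean under 1 FPKM in one group and passed the filter through the other. Of these, 17 were called.

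Of the 35 genes tested, 16 were higher in RSCs (45.7%) and 4 were higher in SCPs (11.4%) at an unadjusted p under 0.01, the threshold of the study. Among all 13003 genes tested the shares were 18.1% and 22.4%, and 40.5% in either direction, against which the counts of each family below are to be read. Nfe2l2, Hmox1, Gpx3, Txnip, Sod3 and Cp were over 4-fold higher in RSCs (17.1%, against a background of 7.81%; 5 of them without SCP replicate 1, when Txnip was at a log2 fold change of 1.99), and none of the 35 was over 4-fold higher in SCPs (background 3.78%). The 3 values of one group lay wholly above those of the other in 25 of the 35 genes (71.4%), against 58.6% of all tested genes. With a Benjamini-Hochberg adjusted p under 0.01 over all tested genes, 12 and 3 passed, without Gclc, Gpx1, Gpx4, Fth1 and Prdx6. Of all tested genes 31.6% passed that threshold, and 47.6% of those were higher in RSCs. The median log2 fold change of the 35 genes, RSC minus SCP on log2(FPKM + 1), was 0.77, or 0.94 above the median of all tested genes, which was -0.17. After median-of-ratios scaling the median of all tested genes was 0.020 and 56.1% of all calls were higher in RSCs, against 44.6% without it. With that scaling, 18 of the 35 genes were higher in RSCs and 2 in SCPs (Prdx2 and Prdx3). Of all genes tested with it, 38.2% were called in either direction and 21.4% were higher in RSCs. The 36 genes together held 1.30%, 1.26% and 1.48% of the named FPKM in SCPs and 2.12%, 2.31% and 2.21% in RSCs, mostly as ferritin. Unnamed transcripts held 31.9%, 27.9% and 26.1% of all FPKM in SCPs and 23.4%, 18.8% and 18.6% in RSCs. Values are without them unless stated, so a larger part of the FPKM was left out in SCPs.

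**Figure D1:**
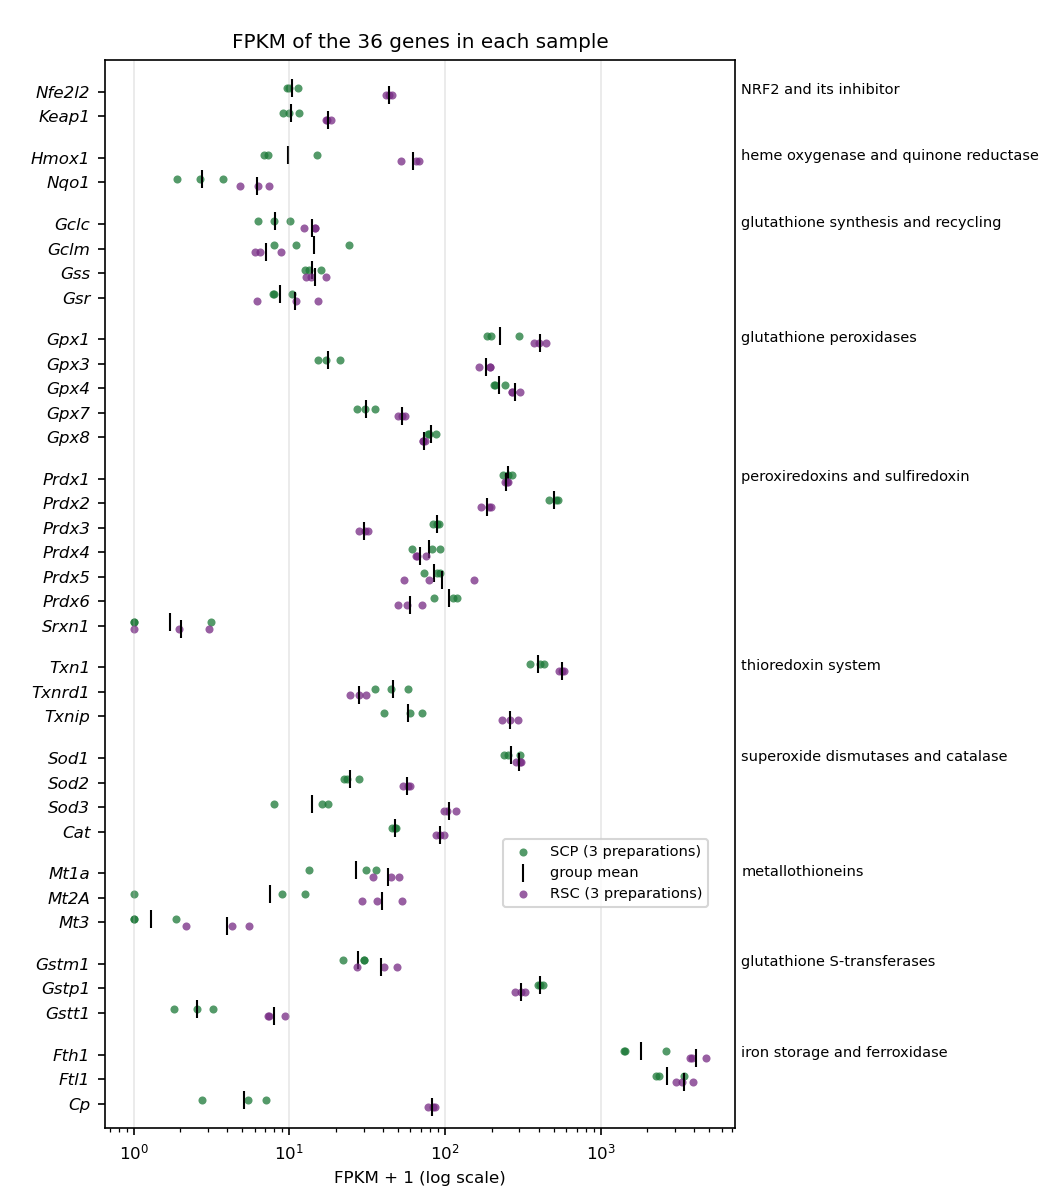
FPKM + 1 on a log axis for the 36 genes by role, with 1 point per sample (green, SCPs; purple, RSCs; 3 each) and a black line at the group mean. The SCP and RSC points lie well apart for Nfe2l2, Hmox1, Gpx3, Sod3 and Cp, while Prdx2 and Prdx3 lie apart with the SCPs on the right, and the ferritin genes Fth1 and Ftl1 are the most abundant.

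NRF2 and its inhibitor were both higher in RSCs. Nfe2l2 (chromosome 3 from 62497565 to 62525142 of rn6) was at 9.00, 8.70 and 10.4 FPKM in SCPs and 44.8, 43.0 and 40.8 in RSCs. The highest SCP value was far below the lowest RSC value, with little spread within either group (log2 fold change 2.08, standard error 0.11, adjusted p = 6.8e-05). Keap1 (chromosome 8 from 22250518 to 22259813), which encodes the adaptor that sends NRF2 to be degraded, was at 8.04, 8.95 and 10.6 FPKM in SCPs and 17.6, 16.4 and 16.3 in RSCs. Its groups lay apart too, and its difference was smaller (log2 fold change 0.81, standard error 0.14, adjusted p = 0.0049). Counting unnamed transcripts, Nfe2l2 was still higher in RSCs and its log2 fold change was 1.87, under 4-fold. Nfe2l2 mRNA came mainly from 2 reference transcripts in RSCs, one of which, NM_031789.2, was at 0, 0 and 4.58 FPKM in SCPs and 15.6, 20.8 and 16.6 in RSCs.

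Hmox1 (chromosome 19 from 14508634 to 14515455), which encodes the inducible heme oxygenase and is a classical NRF2 target, was at 5.87, 6.30 and 14.1 FPKM in SCPs and 51.4, 67.2 and 64.1 in RSCs. Every RSC value was above every SCP value (log2 fold change 2.75, standard error 0.33, adjusted p = 0.0012). SCP replicate 3, the sample richest in globin transcripts, had more than the other SCP samples, and without it the log2 fold change was 3.12. Nqo1, which encodes a quinone reductase and is the other standard NRF2 target, was low in both groups, at 2.74, 1.66 and 0.907 FPKM in SCPs and 5.30, 6.36 and 3.86 in RSCs. Its groups did not overlap, but at a p of 0.0102 it was not called (log2 fold change 1.19, standard error 0.32). It passed the threshold without SCP replicate 1 (log2 fold change 1.43), with the unnamed transcripts added (0.87) and after median-of-ratios scaling (1.34), among others.

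**Figure D2:**
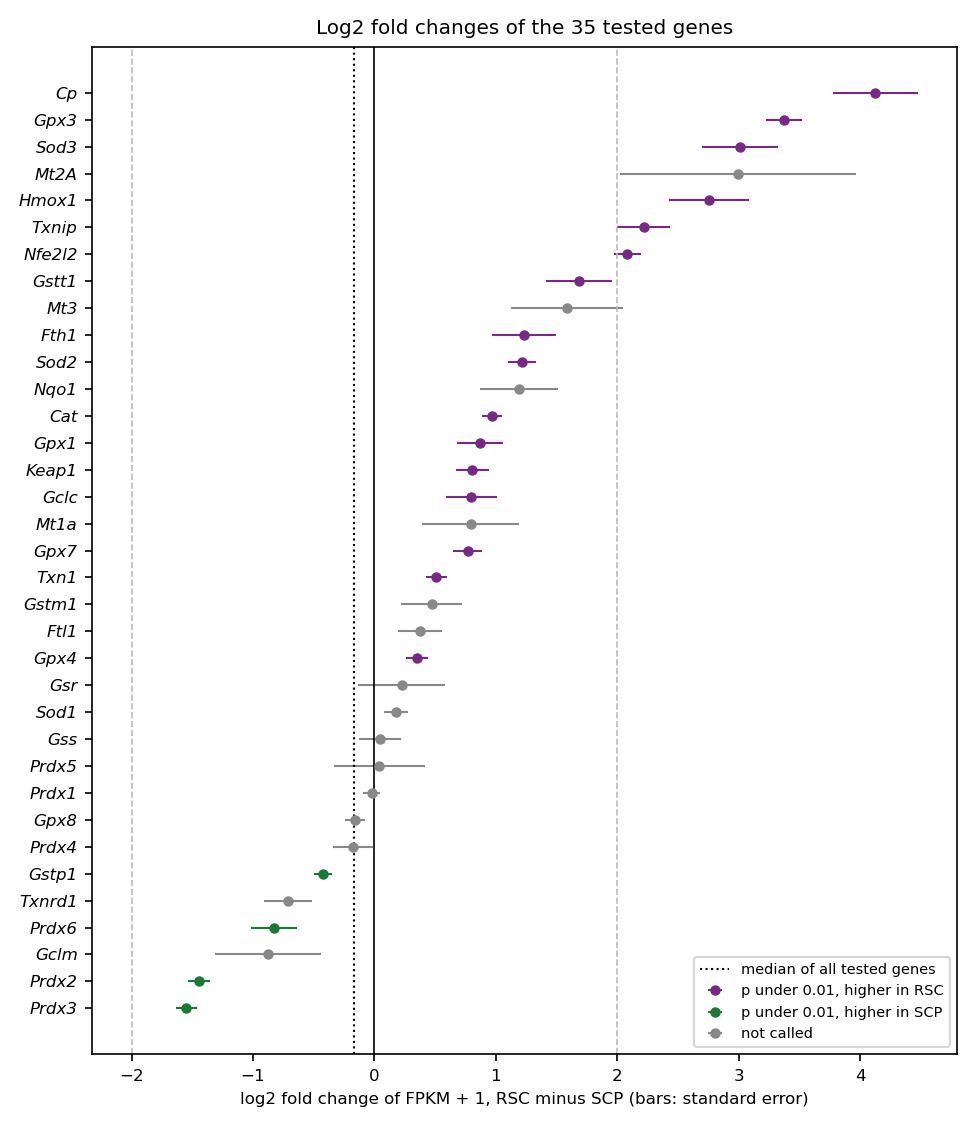
Log2 fold changes of FPKM + 1 (RSC minus SCP) of the 35 tested genes with their standard errors, in order of size, coloured by call at p under 0.01. Of the 35, 16 were called higher in RSCs and 4 in SCPs, the dotted line marks the median of all tested genes at -0.17, and the dashed lines mark 4-fold.

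The enzymes of glutathione synthesis and recycling showed no common direction. Gclc, the catalytic subunit of the rate-limiting enzyme, was at 6.96, 5.32 and 9.09 FPKM in SCPs and 11.4, 13.6 and 13.7 in RSCs. The RSC values were all above the SCP values (log2 fold change 0.80, standard error 0.21, adjusted p = 0.023). This call was lost in 5 of the 6 fits that left out a sample (all but the one without SCP replicate 3, highest p 0.033), with FPKM rescaled without the globin genes (log2 fold change 0.75) and with the unnamed transcripts added, when Gclc was at 11.8, 12.4 and 10.8 FPKM in SCPs and 15.1, 13.6 and 13.7 in RSCs (log2 fold change 0.26). Gclm, its regulatory subunit, was at 10.0, 6.99 and 23.2 FPKM in SCPs and 5.02, 7.83 and 5.46 in RSCs. The groups overlapped, with SCP replicate 3 far above the rest (log2 fold change -0.88, standard error 0.43). Without that sample its log2 fold change was -0.42, and it was not called in either fit. Gss, which makes glutathione from the dipeptide, was at 11.7, 12.4 and 15.1 FPKM in SCPs and 11.8, 16.3 and 12.7 in RSCs. Gsr, which reduces oxidised glutathione, was at 6.94, 6.84 and 9.44 FPKM in SCPs and 9.98, 5.16 and 14.3 in RSCs. For neither gene did the groups lie apart, and the difference was within the error, with log2 fold changes of 0.048 and 0.22 (standard errors 0.17 and 0.36).

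Among the glutathione peroxidases, 4 of 5 were higher in RSCs, against 18.1% of all tested genes. Gpx3 (chromosome 10 from 40247436 to 40255423), which encodes the secreted enzyme, was at 14.2, 16.1 and 20.2 FPKM in SCPs and 164, 193 and 193 in RSCs. The lowest RSC value was far above the highest SCP value (log2 fold change 3.38, standard error 0.15, adjusted p = 3.8e-05). Gpx7, an enzyme of the endoplasmic reticulum, was at 34.4, 29.5 and 26.3 FPKM in SCPs and 48.7, 52.0 and 54.2 in RSCs (log2 fold change 0.77, standard error 0.12, adjusted p = 0.0035). Its groups did not overlap, and SCP replicate 1 was the nearest to the RSCs. Gpx1, the abundant cytosolic enzyme, was at 196, 186 and 296 FPKM in SCPs and 372, 402 and 443 in RSCs (log2 fold change 0.87, standard error 0.19, adjusted p = 0.012). Gpx4, which reduces lipid peroxides in membranes and protects from ferroptosis, was at 209, 207 and 243 FPKM in SCPs and 269, 269.7 and 300.4 in RSCs (log2 fold change 0.35, standard error 0.092, adjusted p = 0.023). In both genes SCP replicate 3 was the SCP sample nearest to the RSCs, and without it the log2 fold changes were 1.08 and 0.42. Both calls were lost in the 5 other fits that left out a sample, with a highest p of 0.017 for Gpx1 and 0.034 for Gpx4, and with quantile normalization (log2 fold changes of 0.75 and 0.19). That of Gpx4 was also lost with FPKM rescaled without the globin genes (0.29) and with no variance trend. Gpx8, the other enzyme of the endoplasmic reticulum, was at 77.0, 87.1 and 77.8 FPKM in SCPs and 71.0, 71.6 and 73.3 in RSCs. All 3 RSC values were just below the SCP values, and it was not called (log2 fold change -0.16, and 0.052 after median-of-ratios scaling).

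No peroxiredoxin was called higher in RSCs, and 3 of the 6 tested were higher in SCPs, against 18.1% and 22.4% of all tested genes. Prdx2 (chromosome 19 from 26084816 to 26090095), a cytosolic enzyme that is also among the most abundant proteins of red cells, was at 532, 463 and 517 FPKM in SCPs and 196, 169 and 190.1 in RSCs. Every SCP value was far above every RSC value (log2 fold change -1.44, standard error 0.089, adjusted p = 1.1e-04). Prdx3 (chromosome 1 from 282238774 to 282251193), the mitochondrial enzyme, was at 90.9, 82.7 and 88.3 FPKM in SCPs and 29.7, 30.8 and 27.0 in RSCs. The groups were as clearly apart as for Prdx2 (log2 fold change -1.55, standard error 0.088, adjusted p = 7.9e-05). Without SCP replicate 3, the sample richest in globin transcripts, the log2 fold changes were -1.42 and -1.54. The part of red cells in these values was not tested. Prdx6, an enzyme that uses glutathione, was at 118, 112 and 83.6 FPKM in SCPs and 56.4, 70.6 and 48.6 in RSCs. Its groups lay apart by a smaller margin (log2 fold change -0.83, standard error 0.19, adjusted p = 0.014), and its call was lost in 4 of 6 fits that left out a sample (highest p 0.020) and after median-of-ratios scaling (log2 fold change -0.62).

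Prdx1, the most abundant cytosolic peroxiredoxin beside Prdx2, was at 269, 251 and 235 FPKM in SCPs and 249, 241 and 252 in RSCs. The groups overlapped (log2 fold change -0.023, standard error 0.071, and 0.19 after median-of-ratios scaling). Prdx4, the secretory pathway enzyme, was at 91.3, 81.1 and 60.6 FPKM in SCPs and 64.5, 64.7 and 74.3 in RSCs (log2 fold change -0.18, and 0.036 after that scaling). Its groups overlapped as well. Summed over the peroxiredoxins and Srxn1, named FPKM were 1193, 1077 and 1059 in SCPs and 675, 630 and 745 in RSCs.

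Prdx5 and Srxn1 depended on how transcripts were named. Prdx5, an enzyme of mitochondria, peroxisomes and cytosol, was at 91.6, 87.5 and 72.7 FPKM in SCPs and 77.9, 53.4 and 152 in RSCs. RSC replicate 3 stood at more than the other RSC samples, and the log2 fold change was 0.042 (standard error 0.37). In RSC replicates 1 and 2 an unnamed transcript at the same locus held 72.7 and 80.1 FPKM. With it the values were 91.6, 87.5 and 72.7 FPKM in SCPs and 151, 134 and 152 in RSCs, all RSC values above all SCP values (log2 fold change 0.79, standard error 0.11, adjusted p = 8.4e-04). Srxn1 encodes sulfiredoxin, which repairs overoxidised peroxiredoxins and is a known NRF2 target. From named transcripts it was at 0, 0 and 2.13 FPKM in SCPs and 2.07, 0.962 and 0 in RSCs and was not tested. With the unnamed transcripts added it was at 0.972, 1.43 and 3.97 FPKM in SCPs and 10.6, 8.84 and 11.4 in RSCs. All RSC values then exceeded all SCP values (log2 fold change 1.97, standard error 0.35, adjusted p = 0.0025). In that setting 57.4% of all genes tested were called, against 40.5% from named transcripts.

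**Figure D3:**
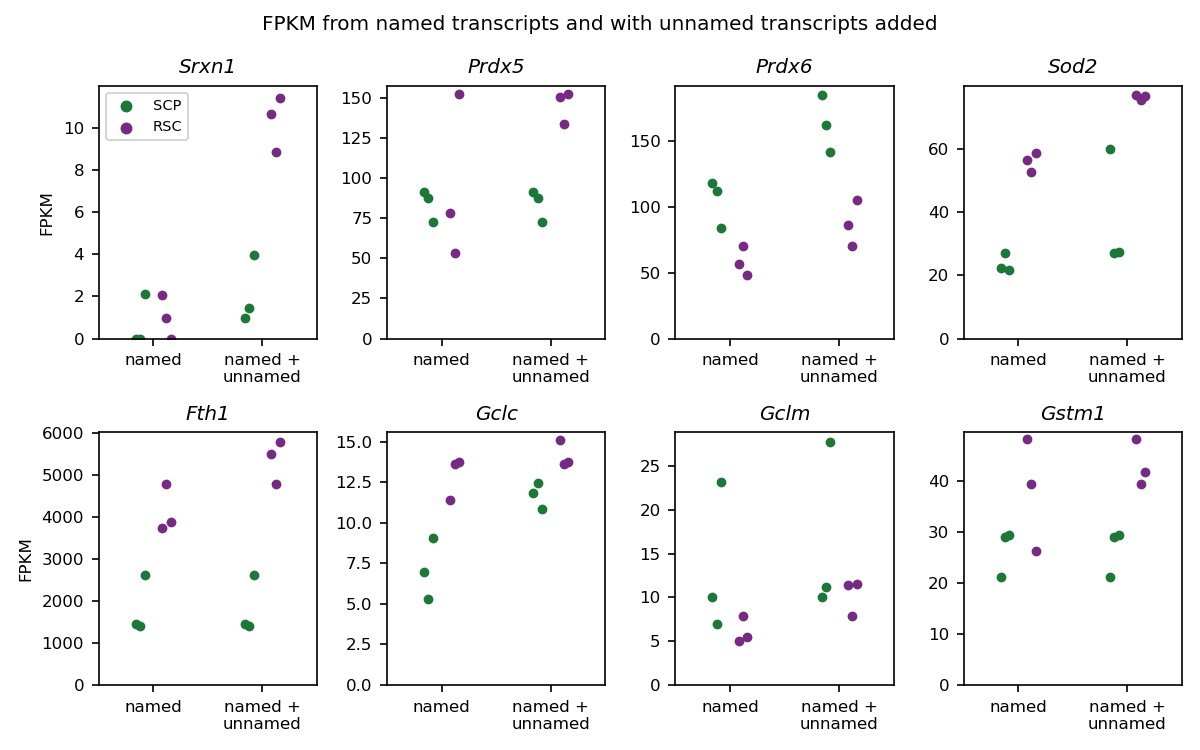
FPKM of 8 of the genes from named transcripts (left of each panel) and with unnamed transcripts of the same locus added (right), 1 point per sample, on linear axes from 0. Prdx5 and Srxn1 go from overlapping groups to RSC values above all SCP values, and Gclc goes from a wide gap to a narrow one.

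In the thioredoxin system, Txn1 and Txnip were higher in RSCs. Txnip (chromosome 2 from 198683168 to 198686971), which encodes a protein that binds and inhibits thioredoxin, was at 39.8, 59.0 and 70.6 FPKM in SCPs and 292, 231 and 259 in RSCs. The lowest RSC value was far above the highest SCP value (log2 fold change 2.22, standard error 0.22, adjusted p = 5.8e-04). Txn1, thioredoxin itself, was at 429.5, 353 and 404 FPKM in SCPs and 579.5, 563 and 541 in RSCs. All RSC values were above all SCP values, by a small margin (log2 fold change 0.51, standard error 0.088, adjusted p = 0.0048). The FPKM of Txn1 lay far above the upper bound of its own Cufflinks interval in SCP replicates 1 and 3 and RSC replicate 2. There it was 429.5 against 190, 404 against 183 and 563 against 232. Txnrd1, the cytosolic reductase that keeps thioredoxin reduced, was at 57.0, 34.7 and 44.3 FPKM in SCPs and 26.8, 23.6 and 30.2 in RSCs. Its RSC values were all below the SCP values, and at a p of 0.012 it was not called (log2 fold change -0.71, standard error 0.20). It was called higher in SCPs without SCP replicate 2 (log2 fold change -0.88), with the unnamed transcripts added (-0.64) and with FPKM rescaled without the globin genes (-0.77).

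Superoxide dismutases and catalase were higher in RSCs in 3 of 4 genes, against 18.1% of all tested genes. Sod3 (chromosome 14 from 60958583 to 60971151), the extracellular enzyme, was at 6.97, 15.1 and 16.7 FPKM in SCPs and 102, 116 and 97.8 in RSCs. The RSC values were several times the highest SCP value, and SCP replicate 1 was the lowest of all (log2 fold change 3.01, standard error 0.31, adjusted p = 7.1e-04). Sod2, the manganese enzyme of mitochondria, was at 22.5, 27.0 and 21.6 FPKM in SCPs and 56.6, 52.7 and 58.7 in RSCs. The groups lay apart (log2 fold change 1.21, standard error 0.12, adjusted p = 4.9e-04). When unnamed transcripts were counted, SCP replicate 1 was at 60.0 FPKM and the other SCP samples were at 27.0 and 27.3. The RSC samples were then at 77.1, 75.4 and 76.8 FPKM, still above every SCP sample. Sod2 was still called on those values (log2 fold change 1.09, adjusted p = 0.017). Cat, catalase, was at 47.8, 44.9 and 46.6 FPKM in SCPs and 97.9, 86.3 and 91.6 in RSCs. Both groups were tight and lay apart (log2 fold change 0.97, standard error 0.080, adjusted p = 3.0e-04). Sod1, the cytosolic copper and zinc enzyme, was at 304, 251 and 240.1 FPKM in SCPs and 307, 286 and 302 in RSCs. Its groups overlapped and it was not called (log2 fold change 0.18), although it passed the threshold after median-of-ratios scaling (0.39) and without SCP replicate 1 (0.28). Sod1 was the most abundant of the 4 in both groups.

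The metallothioneins are short genes that lie side by side, Mt1a and Mt2A with Mt3 (chromosome 19 of rn6, from 11301991 to 11326112 over the 3 genes). None of the 3 was called. Their promoters are printed because these genes are the standard example of induction through metal response elements. The set of RefSeq promoter windows used here held 27 of the 36 genes, with 30 start sites, on the GRCr8 assembly, which is not the build of the tables. The sequences are the 250 bases before the start in the direction of the gene, all 3 on the minus strand, at chr19:10832976-10833225 (Mt1a, which RefSeq lists as Mt1), chr19:10838709-10838958 (Mt2A) and chr19:10856081-10856330 (Mt3). Capitals mark the core of the metal response element (TGCACNC or TGCGCNC), the core of the antioxidant response element (TGACNNNGC) and the AP-1 site (TGACTCA or TGAGTCA), searched on both strands, where TGACTCAGC counts as both of the latter.

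Mt1a: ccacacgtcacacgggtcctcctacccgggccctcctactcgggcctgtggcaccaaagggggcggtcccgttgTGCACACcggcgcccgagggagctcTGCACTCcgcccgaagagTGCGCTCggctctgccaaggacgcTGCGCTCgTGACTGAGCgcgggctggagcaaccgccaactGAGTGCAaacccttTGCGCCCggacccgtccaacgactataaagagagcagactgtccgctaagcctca
Mt2A: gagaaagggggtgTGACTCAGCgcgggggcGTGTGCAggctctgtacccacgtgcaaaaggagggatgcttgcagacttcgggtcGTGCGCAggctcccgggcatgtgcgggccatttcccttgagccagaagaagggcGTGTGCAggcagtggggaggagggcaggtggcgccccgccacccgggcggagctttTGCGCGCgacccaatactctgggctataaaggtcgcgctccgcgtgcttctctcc
Mt3: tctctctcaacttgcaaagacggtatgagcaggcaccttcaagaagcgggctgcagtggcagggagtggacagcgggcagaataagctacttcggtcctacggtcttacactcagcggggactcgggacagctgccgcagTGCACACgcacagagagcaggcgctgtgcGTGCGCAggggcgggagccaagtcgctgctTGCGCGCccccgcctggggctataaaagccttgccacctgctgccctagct

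The metal response core occurred 6 times before Mt1a, 4 times before Mt2A and 3 times before Mt3, and at least once in 20.57% of 33469 windows of this length in the same set. The antioxidant response core occurred once each before Mt1a and Mt2A, the latter overlapping an AP-1 site, and was not found in the Mt3 window. Matches are letters only and say nothing of binding.

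Mt1a was at 35.1, 12.3 and 30.0 FPKM in SCPs and 49.8, 43.7 and 33.4 in RSCs. The lowest RSC value was below the highest SCP value (log2 fold change 0.79, standard error 0.40, adjusted p = 0.15). Mt2A was at 11.6, 0 and 7.99 FPKM in SCPs and 51.8, 28.3 and 35.8 in RSCs. Its RSC values were all higher than its SCP values, of which replicate 2 was listed at 0 (log2 fold change 2.99, standard error 0.97, adjusted p = 0.047). Without SCP replicate 2 the log2 fold change was 1.85 and passed the threshold. Mt3, first described in brain as a growth inhibitory factor, was low, at 0, 0.881 and 0 FPKM in SCPs and 4.53, 3.27 and 1.16 in RSCs (log2 fold change 1.59, adjusted p = 0.033). It passed the threshold without RSC replicate 3 (log2 fold change 1.98). The 3 genes summed to 46.7, 13.2 and 38.0 FPKM in SCPs and 106, 75.3 and 70.3 in RSCs, all RSC sums above all SCP sums, and SCP replicate 2 was the lowest sample.

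Glutathione S-transferases, which join glutathione to electrophiles, went in different directions. Gstp1 (chromosome 1 from 219291679 to 219294147), the pi class enzyme, was the most abundant of the 3, at 426, 405 and 397 FPKM in SCPs and 306, 282 and 326 in RSCs. Its groups lay apart with the SCPs higher (log2 fold change -0.43, standard error 0.074, adjusted p = 0.0052). The difference was -0.26 relative to the median gene, and after median-of-ratios scaling it was -0.21 and no longer called. The call was also lost with no variance trend. RefSeq lists 3 Gstp1 pseudogenes on GRCr8, so reads may be shared. The window before Gstp1 (chr1:210769706-210769955, minus strand, same marks) is printed because all of the motifs searched occur in it.

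Gstp1: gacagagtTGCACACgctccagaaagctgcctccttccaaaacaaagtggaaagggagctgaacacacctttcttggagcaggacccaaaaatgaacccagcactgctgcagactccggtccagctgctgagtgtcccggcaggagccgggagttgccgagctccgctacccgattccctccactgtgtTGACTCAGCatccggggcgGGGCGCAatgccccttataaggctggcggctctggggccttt

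The antioxidant response core was found in 7 of the 30 windows of these genes (23.3%), against 10.08% of all windows. They belong to Gclm, Prdx1, Txnrd1, Sod2, Mt1a, Mt2A and Gstp1. Of these, Sod2 was higher in RSCs, Gstp1 was higher in SCPs and the other 5 were not called. The metal response core was found in 7 windows too (23.3%, against 20.57%), those of Keap1, Gclm, Prdx4, Gstp1 and the 3 metallothioneins. An AP-1 site was found before Prdx1, Srxn1, Mt2A and Gstp1 (13.3% of windows, against 4.05%). Hmox1, Gsr, Gpx8, Prdx6, Txnip, Sod3, Gstt1, Fth1 and Ftl1 were without an entry in that set.

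Gstt1, the theta class enzyme, was at 2.24, 0.826 and 1.56 FPKM in SCPs and 6.36, 6.29 and 8.36 in RSCs. It was low in every sample, with all RSC values above all SCP values (log2 fold change 1.68, standard error 0.27, adjusted p = 0.0039). Gstm1, the mu class enzyme, was at 21.2, 29.0 and 29.3 FPKM in SCPs and 48.1, 39.3 and 26.2 in RSCs, with overlapping groups (log2 fold change 0.47, standard error 0.25). With the unnamed transcripts added, RSC replicate 3 was at 41.7 FPKM and the gene was called higher in RSCs (log2 fold change 0.69, adjusted p = 0.0065). Its second reference transcript was at 5.38, 4.26 and 9.67 FPKM in SCPs and listed at 0 in every RSC sample. Mu class genes are near copies of each other, and how reads were divided among them is not stated.

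The ferritin heavy chain gene Fth1 (chromosome 1 from 226030940 to 226033228), whose product oxidises iron as it enters the ferritin shell, was at 1441, 1412 and 2626 FPKM in SCPs and 3733, 4776 and 3867 in RSCs. SCP replicate 3 was well above the other SCP samples and still below every RSC sample (log2 fold change 1.23, standard error 0.26, adjusted p = 0.011). Without SCP replicate 3 the log2 fold change was 1.52 (adjusted p = 0.0011). Leaving out any other single sample took the p to between 0.010 and 0.015, so that the call was lost. With the unnamed transcripts, which held 1764 and 1921 FPKM in RSC replicates 1 and 3, Fth1 was at 1441, 1412 and 2626 FPKM in SCPs and 5497, 4776 and 5788 in RSCs (log2 fold change 1.61). Ftl1 (chromosome 1 from 101448190 to 101450034), the light chain that supports the iron core, was at 2381, 2261 and 3411 FPKM in SCPs and 3038, 3354 and 3930.5 in RSCs. SCP replicate 3 lay among the RSC samples, and the gene was not called (log2 fold change 0.37, standard error 0.18). Without that sample the difference was 0.56 and passed the threshold (adjusted p = 0.02).

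FPKM is per length, so the levels of both genes can be set beside each other, within a limit of the deposited values. The FPKM of Fth1 lay above the upper bound of its own Cufflinks interval in all 6 samples (1441 against 1174 in SCP replicate 1) and that of Ftl1 in 5 of 6. Over all 36 genes, 6 to 11 transcripts per sample lay outside their intervals. Fth1 over Ftl1 was 0.605, 0.624 and 0.770 in SCPs and 1.23, 1.42 and 0.984 in RSCs, higher in every RSC sample than in any SCP sample. With the unnamed transcripts added, the RSC ratios were 1.81, 1.42 and 1.47 and the SCP ratios stayed as they were. Both chains together made up 0.709%, 0.706% and 0.978% of the named FPKM in SCPs and 1.36%, 1.60% and 1.48% in RSCs. Developing red cells and macrophages both carry much ferritin, and the marker sums of these cell types were high in opposite groups. RefSeq lists 5 Fth1 pseudogenes, 14 Ftl1 pseudogenes and 7 Ftl1-like genes on GRCr8, so the split of reads between chains and copies is uncertain.

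**Figure D4:**
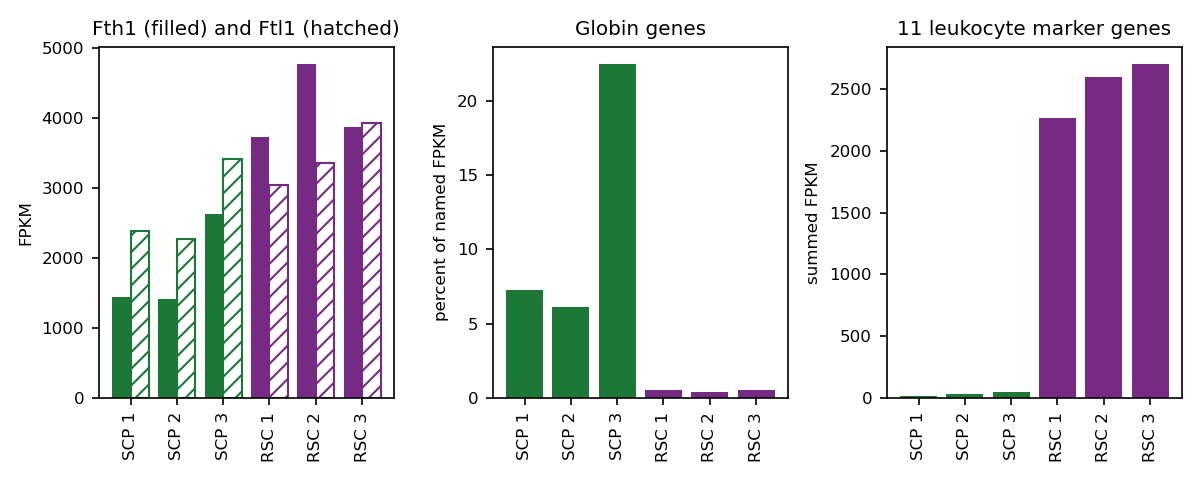
From left to right, for each of the 6 samples (green, SCPs; purple, RSCs), FPKM of the named transcripts of Fth1 and Ftl1, the percent of named FPKM held by globin genes, and the summed FPKM of 11 leukocyte markers. Named Fth1 exceeds Ftl1 in RSC replicates 1 and 2 and nearly equals it in RSC replicate 3, SCP replicate 3 has the highest globin share (22.5%), and the leukocyte sum is 2271 FPKM or more in RSCs and 44.2 or less in SCPs.

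Cp (chromosome 2 from 104744255 to 104803034), which encodes ceruloplasmin, the copper enzyme that oxidises iron leaving cells, had the largest difference of the 35 genes. It was at 4.44, 6.10 and 1.75 FPKM in SCPs and 82.4, 84.9 and 77.3 in RSCs. The RSC samples were close to each other, and named transcripts were lowest in SCP replicate 3 (log2 fold change 4.12, standard error 0.35, adjusted p = 3.3e-04). With unnamed transcripts counted, SCP replicate 3 was the highest SCP sample, at 7.40 FPKM, and the log2 fold change was 3.59. Of its reference transcripts, NM_001270961.1 stood at 4.44, 3.76 and 1.75 FPKM in SCPs and 60.6, 60.5 and 53.9 in RSCs. The RSC samples held 21.8, 24.4 and 23.4 FPKM of NM_012532.2, which was at 0 in all 3 SCP samples. Alternative transcripts of this gene are known to encode a membrane bound and a secreted form, and which of these transcripts encodes which form was not analysed here.

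The other genes of the same pathways, 124 in 8 lists, gave 98 tested genes, of which 33 were higher in RSCs (33.7%) and 13 in SCPs (13.3%), with a median log2 fold change of 0.45. Among all tested genes these were 18.1%, 22.4% and -0.17, against which the shares of each list below are to be read. Of the 98, 16 had a mean under 1 FPKM in one of the groups and so passed the filter through the other, and 10 of these were called. At an adjusted p under 0.01, 30 and 9 passed. At that threshold 31.6% of all tested genes passed, and 47.6% of those were higher in RSCs. After median-of-ratios scaling 37 were higher in RSCs and 6 in SCPs. With that scaling 38.2% of all tested genes were called in either direction and 21.4% were higher in RSCs. Among NRF2 partners and further targets, 7 of 18 tested were higher in RSCs (38.9%) and 2 in SCPs (11.1%). Of the 7, 1 had a mean under 1 FPKM in SCPs and passed the filter through RSCs. Me1, a malic enzyme that supplies NADPH, was at 1.19, 1.90 and 1.07 FPKM in SCPs and 6.32, 6.68 and 6.87 in RSCs (log2 fold change 1.69). Mafk, a small Maf protein that pairs with NRF2 on DNA, was at 7.78, 7.53 and 8.69 FPKM in SCPs and 25.0, 26.0 and 33.0 in RSCs (1.68). Both had RSC values above all SCP values. Higher in SCPs were Rbx1, a subunit of the ubiquitin ligase through which KEAP1 acts (-0.84), and Tkt, transketolase (-0.47).

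In glutathione turnover and glutaredoxins, 5 of 12 genes were higher in RSCs (41.7%), led by Oplah, which recycles oxoproline to glutamate (1.48, 1.08 and 1.98 FPKM in SCPs and 9.26, 29.9 and 19.6 in RSCs, log2 fold change 2.91), and Glrx, the cytosolic glutaredoxin (2.04). Counting unnamed transcripts, Oplah was at 4.45, 3.23 and 1.98 FPKM in SCPs and 19.2, 29.9 and 27.0 in RSCs. The 2 that were higher in SCPs (16.7%), Glrx5 (-1.18) and Glrx3 (-0.75), are glutaredoxins known for handling iron and sulfur clusters. Of 14 further glutathione S-transferases tested, 6 were higher in RSCs (42.9%) and 1 in SCPs (7.14%). Of the 6, 2 had a mean under 1 FPKM in SCPs and passed the filter through RSCs. Of the microsomal enzymes, Mgst1 was at 0.736, 1.60 and 0.776 FPKM in SCPs and 39.0, 39.1 and 39.5 in RSCs (4.33) and Mgst2, which can also make leukotriene C4, was at 0, 0 and 0.639 FPKM in SCPs and 21.4, 27.5 and 32.0 in RSCs (4.55), the largest log2 fold changes of the list. Gstz1, of tyrosine breakdown, was higher in SCPs (-1.43), a call lost at the adjusted p (0.022).

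Of 11 tested thioredoxin and methionine sulfoxide reductase genes outside the 36, 3 were higher in SCPs (27.3%) and 1 in RSCs (9.09%). The first share was near that of all genes, and the median of the list was -0.015 relative to the median gene. Txnrd2, the mitochondrial reductase, was at 6.82, 7.72 and 4.34 FPKM in SCPs and 0, 0 and 0 in RSCs, also with the unnamed transcripts added. Unnamed transcripts went only to the gene they overlapped most, so these values do not show that Txnrd2 was absent from RSCs. Txn2, the mitochondrial thioredoxin, was at 78.8, 79.4 and 79.3 FPKM in SCPs and 48.7, 58.1 and 57.3 in RSCs (-0.53). Gpx2 was higher in RSCs (0, 0 and 0.224 FPKM in SCPs and 8.19, 3.29 and 4.99 in RSCs). Among the called genes, Txnrd2 and Gpx2 had a mean under 1 FPKM in one group and passed the filter through the other. The shares of this list rest partly on them.

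For iron, 2 of 15 tested genes of uptake, export and regulation were higher in RSCs (13.3%) and 4 in SCPs (26.7%). These shares were near those of all genes, and the median of the list was -0.093 relative to the median gene. Tf, transferrin, which Schwann cells make, was at 4.08, 11.8 and 16.8 FPKM in SCPs and 141, 204 and 156 in RSCs. The RSC values were far above all SCP values (log2 fold change 3.98, standard error 0.47, adjusted p = 0.0011). Lcn2, which binds iron carriers of bacteria, was at 1.53, 0.949 and 2.15 FPKM in SCPs and 10.1, 12.7 and 12.9 in RSCs (2.36). Heph, a membrane ferroxidase related to Cp, went the other way, at 19.3, 15.1 and 14.6 FPKM in SCPs and 1.92, 4.90 and 4.71 in RSCs. All SCP values were above all RSC values (log2 fold change -1.90, standard error 0.32, adjusted p = 0.0042), so the ferroxidase genes Cp and Heph changed in opposite directions. With the unnamed transcripts Heph was at 19.3, 19.5 and 14.6 FPKM in SCPs and 4.34, 7.65 and 6.13 in RSCs. Pcbp2, an iron chaperone, was higher in SCPs as well (-1.14). Of 7 heme degradation and scavenging genes tested, 3 were higher in RSCs (42.9%) and none in SCPs. They included Cd163, the macrophage receptor for hemoglobin, at 0, 0 and 0.0507 FPKM in SCPs and 3.51, 9.77 and 5.57 in RSCs (2.75). The RSC values of Cd163 were 16.0, 33.9 and 25.6 FPKM when the unnamed transcripts were added. Another was Lrp1, a receptor for hemopexin, at 55.2, 58.0 and 52.7 FPKM in SCPs and 115, 132 and 123 in RSCs (1.14). Of the 3, Cd163 had a mean under 1 FPKM in SCPs and passed the filter through RSCs.

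In zinc and copper handling, 4 of 14 genes were higher in RSCs (28.6%), led by Cox17, a copper chaperone of mitochondria (1.69), and Slc31a2, a copper transporter (1.33). Atp7a, the copper exporter, was the 1 gene higher in SCPs (7.14%, log2 fold change -0.95), and this call was lost at the adjusted p (0.013). Of 14 enzymes that make superoxide or nitric oxide, 7 were tested. Those called, all higher in RSCs, were Cyba, Ncf1, Ncf4, Nos2 and Xdh, and the last 4 had SCP means under 1 FPKM and passed the filter through their RSC values, so their number is no measure of the list. Ncf1, part of the superoxide producing oxidase of phagocytes, stood at 0, 0 and 0 FPKM in SCPs and 57.4, 50.6 and 52.0 in RSCs, and the next largest difference was that of Ncf4, another of its subunits, at 0.398, 0 and 0.699 FPKM in SCPs and 9.61, 13.8 and 14.6 in RSCs (3.34). Cybb, the catalytic subunit of that oxidase, was not tested and was listed at 0.341, 1.70 and 1.92 FPKM in SCPs and 0, 0 and 0 in RSCs. With the unnamed transcripts added, Cybb was at 0.341, 1.70 and 1.92 FPKM in SCPs and 29.7, 37.1 and 34.7 in RSCs, the opposite order, so its named values cannot be read as its level. Phagocytes express Ncf1, Ncf4, Cybb and Cd163, and the leukocyte markers were higher in RSCs as given above. The part of these cells was not tested.

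**Figure D5:**
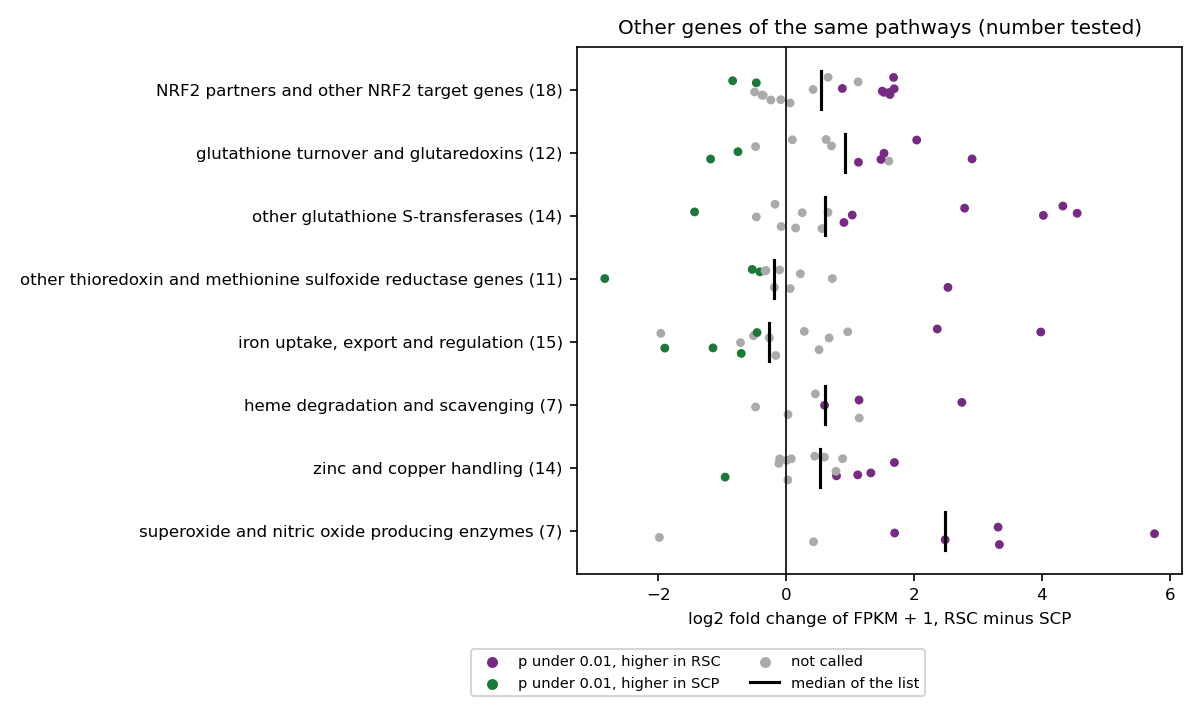
Log2 fold changes of FPKM + 1 (RSC minus SCP) of the 98 tested pathway genes by list, 1 point per gene, coloured by call at p under 0.01, with a black line at the median of each list. The gene furthest to the RSC side is Ncf1 (5.76), in a list where 5 of the 7 tested genes passed the filter through one group alone, and the medians of the thioredoxin (-0.18) and iron (-0.26) lists are the only ones below 0, where the median of all tested genes is -0.17.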

How the data were processed

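RNA from 3 preparations of SCPs and 3 of RSCs was sequenced by the authors as stranded paired-end mRNA libraries. Submitters' processing notes name FastQC 0.11.2, TopHat2 2.1.0 and Cufflinks 2.2.1 on the rn6 genome. The authors deposited Cufflinks output per sample, with the FPKM of each transcript, normalized for transcript length and mapped fragments, and its coverage, a signal used here only for relative depth. Left out were the 77 transcripts per sample whose gene names had become dates.

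FPKM of named transcripts were summed by symbol. A mean FPKM of 1 or more across samples was required, which left 13003 genes. The linear models of limma 3.58.1 (R 4.3.3) were fitted to log2(FPKM + 1), with a variance trend and no block, and two-sided tests were made of RSC minus SCP. Adding 1 understates the change of low genes. No count test was run, since the tables hold no counts. Calls used the study's thresholds, an unadjusted p under 0.01 and 4-fold. The Benjamini-Hochberg adjustment took in every gene tested. Because depth is unknown, no counting error or detection limit can be given, and the number of preparations limits the precision. The labels name no batch. The fit was tested on simulated data. Tables were handled with pandas 2.3.3 in Python 3.11.15. Positions are rn6, counted from 1, over all transcripts of a symbol.

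The members and lists were chosen with earlier results of these data known, so their counts are descriptions beside all tested genes, with no test of a list. All 36 members are named. Of each pathway list the rule names the 2 called genes furthest up and the 2 furthest down, and of marker lists the most abundant gene and genes at 0 in a whole group. Cybb was named after its values were seen. Some marker genes are not reported here. Alternatives tried were no filter, a mean of at least 5 FPKM, a pseudocount of 0.1, quantile normalization, median-of-ratios scaling, rescaling without the globin genes, no variance trend, a replicate block, adjusted p, the highest transcript per gene, unnamed transcripts added to the gene they overlap most at the same Cufflinks locus, values of 0 left out where another sample of the group has at least 5 FPKM, and each sample left out. Genes that share reads with close copies are uncertain, since how Cufflinks divided such reads is not stated. Promoter windows come from RefSeq (GRCr8).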

Additional observations from a re-analysis of the deposited data

How the results depend on the processing

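Of the 20 called genes, 14 kept their call in each of the 18 alternatives (17 for Gstt1, which had a mean under 5 FPKM and so was not tested in the fit with that minimum), and of the 15 that were not called, 7 stayed uncalled in all 18 (Gclm, Gss, Gsr, Gpx8, Prdx1, Prdx4 and Mt1a), of which Gclm and Mt1a also kept their sign. The number called higher in RSCs (16) was 12 to 20, and 12 to 17 when single samples were left out. Those over 4-fold higher in RSCs (6) were 5 to 7, and none was over 4-fold higher in SCPs in any alternative. The number called higher in SCPs (4) was 2 to 5, with the 2 after median-of-ratios scaling, which lost Prdx6 and Gstp1, and 3 to 4 when single samples were left out. For the pathway genes, those higher in SCPs (13) were 6 after median-of-ratios scaling, 17 with the unnamed transcripts added and 9 to 12 with single samples left out, and those higher in RSCs (33) were 26 to 44, or 29 to 32 with single samples left out. The cause of the shift under median-of-ratios scaling was not tested.

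Some small log2 fold changes that were not called changed sign. After median-of-ratios scaling these were Gpx8 (0.052), Prdx1 (0.19) and Prdx4 (0.036). With FPKM rescaled without the globin genes they were Gss (-0.0049) and Prdx5 (-0.015), with quantile normalization Prdx5 (-0.050), and with the unnamed transcripts added Gss (-0.13). Leaving out single samples gave Gss values of -0.080 to 0.15, Gsr -0.075 to 0.58, Prdx1 -0.072 to 0.026 and Prdx5 -0.37 to 0.38. Gss reversed at -0.021 without SCP replicate 1 and -0.080 without RSC replicate 2, Gsr without RSC replicate 3, Prdx1 without SCP replicate 1, and Prdx5 at -0.057 without SCP replicate 3 and -0.37 without RSC replicate 3.

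Deviations of replicates with the same number were barely correlated across genes (Pearson r of 0.044, -0.0049 and 0.026). For replicates with different numbers r was -0.048 to 0.022. With so few samples these values cannot show whether equal numbers mark samples prepared together. With a replicate block, 32.9% of all genes were called in place of 40.5%, and 15 and 4 of the 35 genes, with Gclc the 1 call that was lost (log2 fold change 0.80, unchanged in size). The share of all genes called was lowest with no filter (30.2%) and highest with the unnamed transcripts added (57.4%). Depth is unknown, so what it limits could not be measured.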
